A study of Caenorhabditis elegans with 4 samples.

Results

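A set of 10 genes that build and anchor the receptors of motor synapses was followed in RNA from whole Caenorhabditis elegans larvae: the acetylcholine receptor subunits unc-29, unc-38, unc-63, lev-1, lev-8, acr-16 and acr-12, the GABA receptor gene unc-49, and the clustering genes lev-9 and lev-10. They were chosen by name, and all 10 were found among the 41614 genes to which the RefSeq accessions of the expression table could be matched. The mutants, dve-1(uf171), were compared with wild-type animals, with 2 libraries for each genotype. Both genotypes were at the first larval stage (L1), were raised at 25 degrees Celsius on bacteria and were synchronized before about 1200 larvae were collected for each library. Total RNA was sequenced and given as FPKM, a unit that divides the fragments of a transcript by its length and by the fragments mapped in the whole library. A mutant strain carries its allele in every cell, and RNA of all tissues was pooled, so a level here is an average over motor neurons, muscle and every other tissue. Fewer cells of a type and less RNA per cell cannot be told apart in such data.

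Body wall muscle of C. elegans is excited by acetylcholine and inhibited by GABA. Acetylcholine opens a levamisole-sensitive receptor, made of the alpha subunits UNC-38, UNC-63 and LEV-8 and the non-alpha subunits UNC-29 and LEV-1, and a separate nicotine-sensitive receptor made of ACR-16. GABA opens a chloride channel encoded by unc-49, which relaxes the muscle. LEV-10, a transmembrane protein, and LEV-9, a protein secreted by muscle, hold levamisole receptors in clusters opposite the release sites. ACR-12 is an alpha subunit of motor neurons, and in GABA neurons it marks the sites where these receive acetylcholine. DVE-1 is a homeodomain protein, and in GABA motor neurons that rewire in early larval life it is known to be needed for the removal of their juvenile synaptic sites.

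All accessions together summed to 2247009 and 2051173 FPKM in the mutant libraries and 2394188 and 2353301 FPKM in wild type. Fragment totals are not part of the table, so the depth behind a value is unknown and no counting interval is given. The labels do not say whether the replicates are separate cultures, and p-values therefore measure only the spread between these libraries, which may be technical. The transcript of dve-1 itself was present in the mutant at 23.4 and 25.5 FPKM, against 15.1 and 19.5 FPKM in wild type. The groups did not overlap, as was so in this direction for 28.1% of all tested genes. The log2 fold change was 0.49 (SE 0.17) and did not pass the threshold (limma adjusted p = 0.439). A mutant allele need not alter its RNA level. As a check of the labelled whole animal, the markers of muscle, neurons, pharynx, intestine and epidermis that had a matched accession were above 0 in every library, the lowest being the epidermal gene dpy-7 at 0.232 FPKM in the second wild-type library. The muscle marker unc-15 and the neuronal marker snb-1 had no matched accession and were not analysed here.

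No receptor or clustering gene changed past the threshold between the genotypes. In 9 of the genes the log2 fold change was above 0, and in unc-49 it was below 0. The lowest adjusted p was 0.414, for lev-10, and the highest 0.867, for unc-49 (limma across 15202 genes, Benjamini-Hochberg adjusted). Over all tested genes 1.66% were called, 0.303% as higher and 1.36% as lower in the mutant. This excess of lower calls over all genes turned round without either mutant library. It stayed without either wild-type library, so its direction went with the genotype left with a single library. At an unadjusted p under 0.05 limma took 1 of the 10, lev-10, against 11.9% of all tested genes. All 10 passed the filter of a mean of 1 FPKM, and each stood above 2 FPKM in every library. Fold changes were taken on log2(FPKM + 1), mutant over wild type, which understates differences of low genes.

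For 6 of the 10 the lower mutant value exceeded the higher wild-type value, and for 0 of them the reverse was true. The corresponding shares of all tested genes were 28.1% and 15.9%, and 60.7% of them had a log2 fold change above 0. The 10 genes had a median log2 fold change of 0.28, against 0.09 over all tested genes. That difference rested largely on the first wild-type library: without it the median of the 10 was 0.10 and exceeded that of all tested genes by 0.016. Median-ratio scaling moved the median of all tested genes by -0.11, to -0.013, and the 10 genes still exceeded it by 0.18, as they did by 0.19 without scaling.

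**Figure D1:**
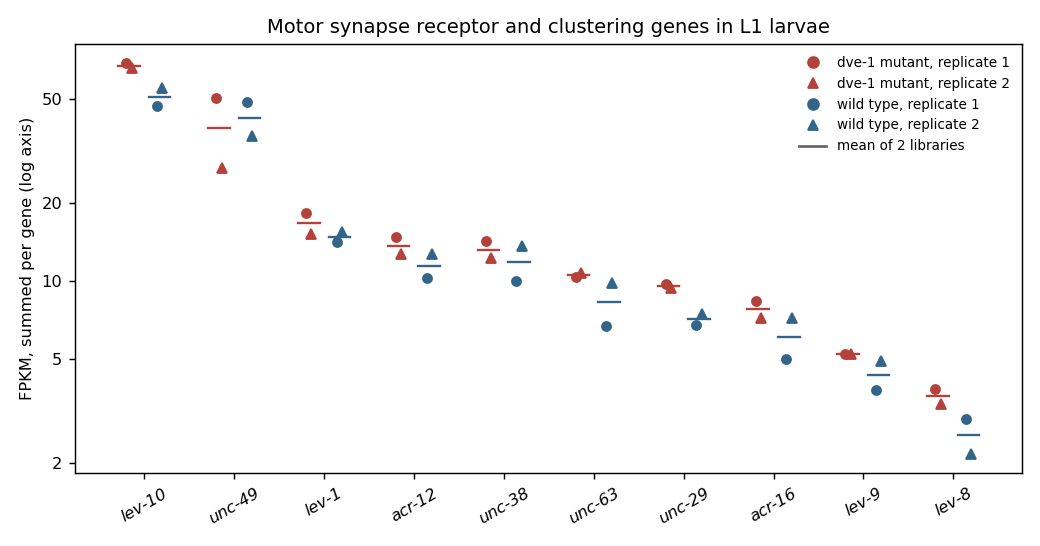
FPKM of each gene (log axis) in the 2 dve-1 mutant libraries (red, left) and the 2 wild-type libraries (blue, right), with circles for replicate 1, triangles for replicate 2 and a line at the mean. Genes run from lev-10, at 65.7 to 68.5 FPKM in the mutant and 46.96 to 55.2 FPKM in wild type, down to lev-8, at 3.36 to 3.84 FPKM in the mutant and 2.17 to 2.94 FPKM in wild type.

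Among the levamisole receptor subunits, unc-29 was separated most clearly between genotypes. This non-alpha subunit gene (chromosome I, 8897632 to 8901435, WBcel235) stood at 9.75 and 9.36 FPKM in the mutant, against 6.76 and 7.46 FPKM in wild type. Both mutant libraries were high and the groups did not overlap. Its log2 fold change was 0.38 (SE 0.13, 95% interval -0.0026 to 0.76, limma adjusted p = 0.424), and it stayed between 0.32 and 0.44 with any 1 library left out.

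The alpha subunit gene unc-63 (chromosome I, 5141673 to 5149226) stood at 10.3 and 10.7 FPKM in the mutant, against 6.71 and 9.86 FPKM in wild type. The second wild-type library lay close under both mutant libraries, and the first lay well under them. The log2 fold change was 0.33 (SE 0.22, limma adjusted p = 0.627), and 0.086 without the first wild-type library. The other alpha subunit shared with neuronal receptors, unc-38 (chromosome I, 4897620 to 4900974), stood at 14.2 and 12.2 FPKM in the mutant, against 10.01 and 13.6 FPKM in wild type. Here the groups overlapped, the first mutant library being the highest of the 4 and the first wild-type library the lowest. The log2 fold change of unc-38 was 0.16 (SE 0.20, limma adjusted p = 0.75) and changed sign, to -0.043, without the first wild-type library.

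The non-alpha subunit gene lev-1 (chromosome IV, 13174157 to 13179395) was the most abundant of the 5 levamisole subunits. It stood at 18.3 and 15.2 FPKM in the mutant, against 14.1 and 15.5 FPKM in wild type, and the groups overlapped. Its log2 fold change was 0.16 (SE 0.15, 95% interval -0.28 to 0.61, limma adjusted p = 0.647). All of its FPKM were assigned to 1 of its 2 accessions in the table, the other being listed at 0 in all 4 libraries.

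The alpha subunit gene lev-8 (chromosome X, 11560915 to 11563707), also known as acr-13, was the least abundant of the 10. It stood at 3.84 and 3.36 FPKM in the mutant, against 2.94 and 2.17 FPKM in wild type. The groups did not overlap, and the log2 fold change was 0.38 (SE 0.23, 95% interval -0.30 to 1.06, limma adjusted p = 0.612). An RNA gene on the opposite strand, linc-33, shares 83 of the 1731 exon bases of lev-8 and was listed at 23.7 and 7.72 FPKM in the mutant, against 0 in both wild-type libraries. The sources used here do not give whether counting used strand, and the part of linc-33 reads in the lev-8 values was not tested.

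The levamisole subunits together summed to 56.4 and 50.8 FPKM in the mutant, against 40.5 and 48.6 FPKM in wild type. Both mutant sums were the higher ones, by a small margin over the second wild-type library. The make-up of the sum was alike in all 4 libraries. lev-1 contributed 32.4% and 29.8% of it in the mutant and 34.8% and 31.9% in wild type, the largest share in each library. unc-38 contributed 25.2% and 24.04% in the mutant and 24.7% and 28.0% in wild type. lev-8 contributed the smallest share, 6.82% and 6.60% in the mutant and 7.26% and 4.47% in wild type. Only unc-29 had both mutant shares above both wild-type shares, at 17.3% and 18.4% in the mutant against 16.7% and 15.4% in wild type, a difference of the order of the spread between libraries. The shares of unc-63 overlapped, at 18.3% and 21.1% in the mutant and 16.6% and 20.3% in wild type. These shares are of FPKM, which are per transcript length, and were not tested.

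The nicotine-sensitive receptor gene acr-16 (chromosome V, 8561216 to 8564345) stood at 8.37 and 7.23 FPKM in the mutant, against 5.02 and 7.17 FPKM in wild type. The second libraries of both genotypes were nearly equal, and the separation came from the first ones. Its log2 fold change was 0.32 (SE 0.22, 95% interval -0.33 to 0.98, limma adjusted p = 0.627), and 0.10 without the first wild-type library. Set against the summed levamisole subunits, acr-16 had a ratio of 0.149 and 0.142 in the mutant and 0.124 and 0.148 in wild type, so that the groups overlapped. A protein-coding gene on the opposite strand, F25G6.8, shares 43 of its 1822 exon bases and was far more abundant, at 157 and 160 FPKM in the mutant and 173 and 176 FPKM in wild type. The part of F25G6.8 reads in the acr-16 values was not tested.

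**Figure D2:**
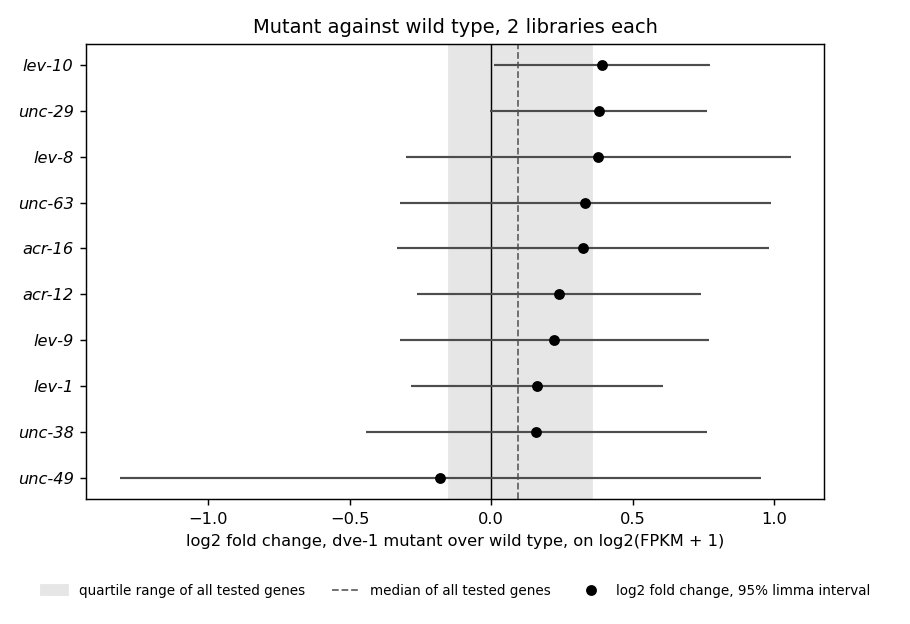
Log2 fold change of each gene, dve-1 mutant over wild type on log2(FPKM + 1), with its 95% limma interval; the grey band spans the range between the quartiles of all tested genes and the dashed line their median. The points run from -0.18 for unc-49 to 0.39 for lev-10, and unc-49 has the widest interval, from -1.31 to 0.95.

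The neuronal subunit gene acr-12 (chromosome X, 13532853 to 13536459) stood at 14.7 and 12.7 FPKM in the mutant, against 10.3 and 12.7 FPKM in wild type. The second mutant library lay just under the second wild-type library, so the groups overlapped. Its log2 fold change was 0.24 (SE 0.17, 95% interval -0.26 to 0.74, limma adjusted p = 0.627). With 1 library left out it ranged from 0.099, without the first wild-type library, to 0.38, without the second. In whole animals this level includes acr-12 of cholinergic motor neurons and other neurons. Set against unc-25, the GABA-synthesizing enzyme gene, acr-12 had a ratio of 0.247 and 0.207 in the mutant and 0.201 and 0.245 in wild type, with no separation of the groups. Its ratio to the summed levamisole subunits was close to constant, 0.261 and 0.249 in the mutant and 0.253 and 0.261 in wild type.

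The FPKM of acr-12 were divided between 2 RefSeq transcripts, and this division differed between the genotypes more than the sum did. NM_001313441 stood at 9.60 and 8.396 FPKM in the mutant, against 4.90 and 6.96 FPKM in wild type, and the groups did not overlap. NM_077861 stood at 5.08 and 4.26 FPKM in the mutant, against 5.35 and 5.70 FPKM in wild type, in the opposite order and again without overlap. The first transcript thus held 65.4% and 66.3% of the gene's FPKM in the mutant, against 47.8% and 54.96% in wild type. When the more abundant transcript stood for the gene, the log2 fold change was 0.54 and did not pass either (limma adjusted p = 0.506). Ensembl annotates 2 acr-12 transcripts, of 2059 and 1449 nt, and all 1449 bases of the shorter lie within the longer. Fragments from the shared bases can come from either, so the division is an estimate made during quantification. Which accession corresponds to which Ensembl transcript was not analysed here, and the difference in shares was not tested.

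**Figure D3:**
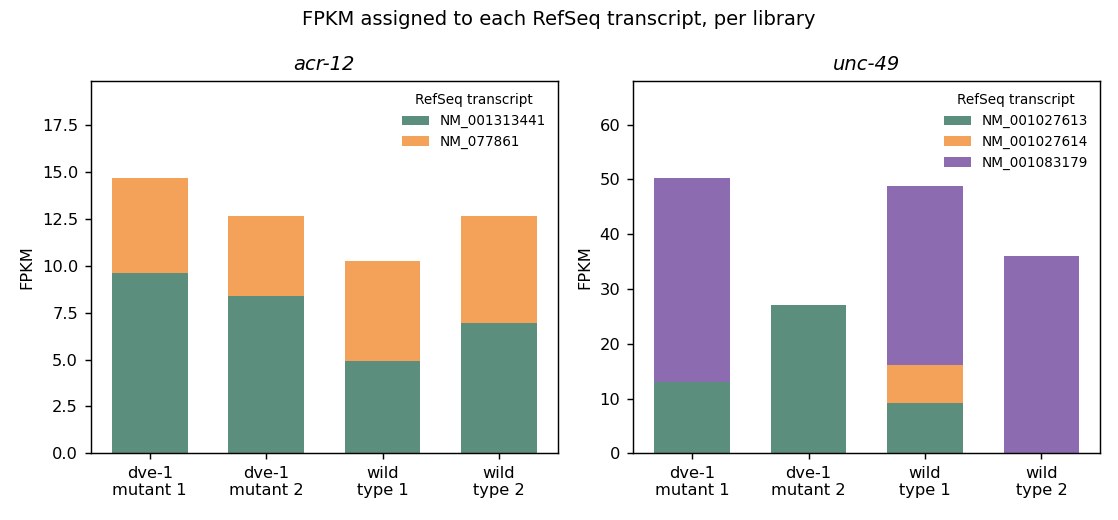
FPKM assigned to each RefSeq transcript of acr-12 (left) and unc-49 (right), stacked, in the 2 dve-1 mutant and the 2 wild-type libraries. For acr-12 the lower segment is larger in both mutant libraries (9.60 and 8.396 FPKM) than in wild type (4.90 and 6.96 FPKM); for unc-49 a transcript at 32.8 to 37.4 FPKM in 3 libraries is listed at 0 in the second mutant library.

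The GABA receptor gene unc-49 (chromosome III, 10520762 to 10532705) was the second most abundant of the 10 and the most variable between replicates. It stood at 50.3 and 27.1 FPKM in the mutant, against 48.9 and 36.1 FPKM in wild type. The mutant libraries held both the highest and the lowest of the 4 values, so the groups overlapped fully. Its log2 fold change was -0.18 (SE 0.38, 95% interval -1.31 to 0.95, limma adjusted p = 0.867). Without the second mutant library the value was 0.26 and without the first wild-type library 0.035. The interval covers changes in either direction larger than those estimated for any of the acetylcholine receptor genes.

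The main transcripts of unc-49 are known to share their first exons and differ at the end, and 7 accessions of it were in the table, 3 of them above 0 in any library. NM_001083179 held most of the FPKM of the gene in 3 libraries, at 37.4 FPKM in the first mutant library, 32.8 in the first wild-type library and 36.1 in the second. In the second mutant library it was listed at 0. NM_001027613 stood at 13.0 and 27.1 FPKM in the mutant, against 9.27 and 0 FPKM in wild type. NM_001027614 was above 0 only in the first wild-type library, at 6.84 FPKM. Thus the 2 wild-type libraries differed in which transcripts were listed, as did the 2 mutant libraries. When NM_001083179 alone stood for the gene, the log2 fold change was -2.51, set by its listing at 0 in 1 mutant library (limma adjusted p = 0.634). An RNA gene on the same strand, T21C12.12, shares 84 of the 4110 exon bases of unc-49 and stood at 1786 and 1483 FPKM in the mutant, against 2767 and 1769 FPKM in wild type. The part of T21C12.12 reads in the unc-49 values was not tested.

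The clustering gene lev-10 (chromosome I, 14390333 to 14400222) was the most abundant of the 10 and had the highest log2 fold change. It stood at 68.5 and 65.7 FPKM in the mutant, against 46.96 and 55.2 FPKM in wild type. The groups were separate, and the log2 fold change was 0.39 (SE 0.13, 95% interval 0.0097 to 0.77, limma adjusted p = 0.414). With any 1 library left out it ranged from 0.28 to 0.51. The ratio of lev-10 to the summed levamisole subunits was 1.22 and 1.29 in the mutant, against 1.16 and 1.14 in wild type. The exons of lev-10 are largely shared with eat-18, a gene on the same strand for a small protein needed by pharyngeal acetylcholine receptors. Of the 2950 exon bases of lev-10, 2714 also lie in annotated eat-18 transcripts, and eat-18 was listed at 0 in all 4 libraries. The level called lev-10 can therefore include transcripts of eat-18.

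Its secreted partner lev-9 (chromosome X, 6281847 to 6291732) was much less abundant. In the mutant lev-9 had 5.22 and 5.23 FPKM, against 3.82 and 4.90 FPKM in wild type. The groups did not overlap, and the mutant replicates were nearly equal. Its log2 fold change, 0.22 (SE 0.18, 95% interval -0.32 to 0.77, limma adjusted p = 0.627), became 0.077 without the first wild-type library. All FPKM of lev-9 fell on 1 of its 3 accessions. Per transcript length, lev-10 exceeded lev-9 by a factor of 13.1 and 12.6 in the mutant and of 12.3 and 11.3 in wild type.

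The order of mean levels was nearly the same in both genotypes. In the mutant it ran lev-10, unc-49, lev-1, acr-12, unc-38, unc-63, unc-29, acr-16, lev-9 and lev-8, and in wild type acr-12 and unc-38 changed places. In the mutant the ranges of neighbours in this order were separate, except those of acr-12 and unc-38. In wild type the ranges of 4 pairs of neighbours overlapped: lev-10 and unc-49, unc-38 and acr-12, unc-63 and unc-29, and unc-29 and acr-16. Mean FPKM ran from 67.1 ± 2.03 (lev-10) to 3.60 ± 0.345 (lev-8) in the mutant, and from 51.1 ± 5.80 to 2.56 ± 0.547 in wild type (SD, n = 2). Among all tested genes, lev-10 lay at the 83.7th percentile of mean FPKM, acr-12 at the 48.7th and lev-8 at the 20.2nd.

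Most of the 10 genes differed in the same direction between the libraries of a genotype. Whether they vary together was not tested. In the mutant, 8 of the 10 were higher in the first library than in the second, the exceptions being unc-63 and lev-9. In wild type, 8 of the 10 were higher in the second library than in the first, the exceptions being lev-8 and unc-49. Over all tested genes these shares were 52.4% and 50.6%. The mean of log2(FPKM + 1) over the 10 was 3.90 and 3.71 in the mutant, against 3.48 and 3.65 in wild type. Leaving out the first wild-type library accordingly lowered the log2 fold change of 8 of the 10 genes.

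**Figure D4:**
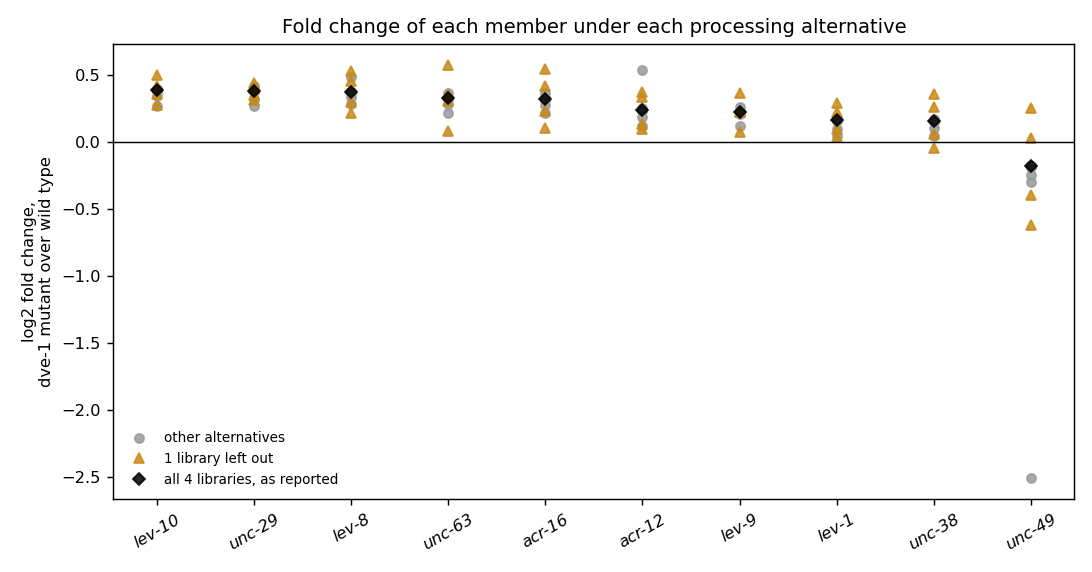
Log2 fold change of each gene, dve-1 mutant over wild type, with all 4 libraries (black), with 1 library left out (orange) and under the other processing alternatives (grey). Values of unc-29 and lev-10 stay above 0.27, that of unc-38 reaches -0.043, and those of unc-49 spread from -2.51 to 0.26.

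By the mean of log2(FPKM + 1), markers of neurons and of body wall muscle were higher in the first mutant and in the second wild-type library. By summed FPKM the muscle markers were instead slightly higher in the first wild-type library than in the second. Of the muscle markers measured, lev-11 alone had this order between the wild-type libraries, at 1523 and 1088 FPKM. Over the 11 pan-neuronal genes measured, the mean of log2(FPKM + 1) was 6.27 and 5.998 in the mutant, against 5.88 and 6.09 in wild type. The neuronal set and the 10 receptor genes were both highest in the first mutant library and lowest in the first wild-type library, but the second mutant library lay below the second wild-type library for the neuronal set and above it for the receptor genes. Summed pan-neuronal levels were 2148 and 1779 FPKM in the mutant and 1707 and 2008 FPKM in wild type. The 10 body wall muscle genes measured had a mean of 7.14 and 7.01 in the mutant and 6.97 and 7.22 in wild type on the same log2 scale, the second wild-type library being highest, and sums of 3341 and 3187 FPKM in the mutant and 3268 and 3167 FPKM in wild type. The part of the neuronal or muscle share of RNA in the receptor levels was not tested.

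Among the 11 pan-neuronal genes 0 passed limma and the median log2 fold change was 0.20, from -0.19 for the syntaxin gene unc-64 to 0.40 for the synaptic vesicle GTPase gene rab-3. The most abundant over the 4 libraries, sbt-1 and egl-21, both of neuropeptide processing, had log2 fold changes of -0.040 and 0.27, and egl-3, above egl-21 in wild type, had one of 0.035. Among the 10 body wall muscle genes 0 passed and the median was -0.02, from -0.43 for dim-1 to 0.21 for the tropomyosin gene lev-11, the most abundant, with the troponin T gene mup-2 next at -0.022. The other markers had 0 genes past limma as well. Pharyngeal muscle summed to 1027 and 937 FPKM in the mutant and 739 and 980 FPKM in wild type, with values from -0.20 for ceh-22 to 0.40 for tnc-2, and 0.16 for the pharyngeal myosin gene myo-2. Intestinal markers summed to 736 and 1220 FPKM in the mutant and 1431 and 1297 FPKM in wild type, with values from -0.57 for the actin gene act-5 to 0.60 for elt-7, and -0.41 for ifb-2. Epidermal markers summed to 65.3 and 84.9 FPKM in the mutant and 107.6 and 113 FPKM in wild type, with a median of 0.21 over 5 genes and values of -1.52 for elt-1, -0.61 for lin-26, 0.21 for the collagen gene dpy-7, 0.27 for che-14 and 0.47 for elt-3. Of these dpy-7 varied most within a genotype, at 2.37 and 10.8 FPKM in the mutant and 23.1 and 0.232 FPKM in wild type. Coelomocyte genes had values of 0.21 (unc-122) and 0.57 (cup-4). The tested germline genes ran from -0.17 (mex-3) to 0.09 (pgl-3), with glh-1 at -0.14, and pgl-1 lay below the filter.

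The genes around these receptors, in 9 lists on cholinergic and GABA signalling, muscle excitability and synapse remodelling, gave no call either. Of 100 such genes, 84 were tested, 4 lay below the filter and 12 had no matched accession and were not analysed here, among them acr-8, unc-74 and unc-17. None of the 84 passed limma after adjustment, and 9 of them, 10.7%, had an unadjusted p under 0.05, against 11.9% of all tested genes. The lowest adjusted p, 0.137, belonged to slo-1, the calcium-activated potassium channel gene, at 18.8 and 19.7 FPKM in the mutant, against 33.4 and 39.5 FPKM in wild type, or -0.89 (SE 0.14) as log2 fold change.

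The other nicotinic-type subunit genes had values close to those of the 10. In 15 of 16 tested the log2 fold change was above 0, against 60.7% of all tested genes, and the median was 0.25. These 15 include acr-20, at 4.52 and 0 FPKM in the mutant and 2.54 and 0 FPKM in wild type, where the sign means little (SE 1.22). How far the values of this and the other lists rest on the first wild-type library was not analysed. In 9 of the 16 both mutant libraries were above both wild-type libraries, against 28.1% of all tested genes. The extremes were acr-19, the most abundant over the 4 libraries though not in wild type, at 13.1 and 12.01 FPKM in the mutant against 7.21 and 8.59 FPKM in wild type (0.61, limma adjusted p = 0.318), and acr-17 (-0.037). The most abundant in wild type, acr-15, had a log2 fold change of 0.27. Partners of acr-12 in the receptor of cholinergic motor neurons were among them: acr-2 stood at 6.72 and 5.39 FPKM in the mutant, against 4.31 and 5.94 FPKM in wild type, and acr-3 at 2.35 and 2.12 FPKM in the mutant, against 1.71 and 2.22 FPKM in wild type. Both overlapped between genotypes, as acr-12 did.

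Genes that assemble, modify or place these receptors had values on both sides of 0. Of 7 assembly and auxiliary genes tested 3 had both mutant values above both wild-type values and 1 had both below, against 28.1% and 15.9% of all tested genes, with a median of -0.02. The highest value was that of molo-1, an auxiliary protein of the levamisole receptor, at 20.2 and 17.7 FPKM in the mutant against 12.6 and 14.6 FPKM in wild type (log2 fold change 0.45, limma adjusted p = 0.41). The lowest was that of emc-6, which encodes a subunit of a membrane protein insertion complex and was the most abundant (-0.28). The receptor trafficking gene unc-50 was next over the 4 libraries (0.22), while in wild type nra-2 was (-0.042). Of 12 clustering and localisation genes 4 had both mutant values above and 1 both below, to be read against the same shares, with a median of 0.10. They ran from cam-1, a Ror receptor kinase gene (-0.47), to dsh-1, a Dishevelled gene (0.57), and the most abundant were the neurexin gene nrx-1 (0.23) and rsu-1 (0.16).

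The remaining receptors lay mostly above 0, as the 10 genes did. All 7 other GABA receptor genes tested had a log2 fold change above 0, as had 60.7% of all tested genes, with a median of 0.28, from 0.060 for exp-1 to 0.36 for lgc-35, both excitatory GABA-gated channels. In 5 of the 7 both mutant libraries were above both wild-type libraries, against 28.1% of all tested genes; unc-49 was not among such genes, and the difference between it and them was not tested. The metabotropic subunits gbb-1 and gbb-2 were the most abundant (0.069 and 0.19). Of 9 acetylcholine-gated chloride channels and muscarinic receptors 5 had both mutant values above, against the same 28.1%, with a median of 0.17. These ran from the muscarinic receptor gene gar-1 (-0.061) to the chloride channel gene acc-1 (0.57), with gar-2 (0.038) and gar-3 (0.17) the most abundant.

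On the side that releases transmitter, 4 of 7 genes for acetylcholine synthesis, release and breakdown had both mutant values above both wild-type values, against 28.1% of all tested genes, with a median of 0.13. They ran from unc-3, a cholinergic fate gene (-0.058), to the choline transporter gene cho-1 (0.44), and the cholinesterase genes ace-2 and ace-3 were the most abundant (0.26 each). For GABA synthesis, release and uptake 4 of 5 did so, against the same share, with a median of 0.23, from the homeobox gene unc-30 (-0.32) to the vesicular transporter gene unc-47 (0.63), while unc-25 and the GABA transporter gene snf-11 were the most abundant (0.23 and 0.59).

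Genes of muscle excitability, downstream of the receptors, had a median of 0.25 over 9 tested, with 4 above in both mutant libraries and 2 below, against 28.1% and 15.9% of all tested genes. Beside slo-1, the lowest, they included the calcium channel gene egl-19, the highest (0.52), and the most abundant, the kinase gene unc-43 (-0.15) and the channel subunit gene unc-36 (0.056). Genes tied to the remodelling of GABA motor neuron synapses had a median of 0.07 over 13 tested. Of these 4 were above, dve-1 itself being 1 of them, and 1 was below, against the same 28.1% and 15.9% of all tested genes. Their extremes were hbl-1 (-0.46) and ced-4 (0.50), and the kinase gene dlk-1 (0.25) and the timing gene lin-14 (-0.33) were the most abundant.

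**Figure D5:**
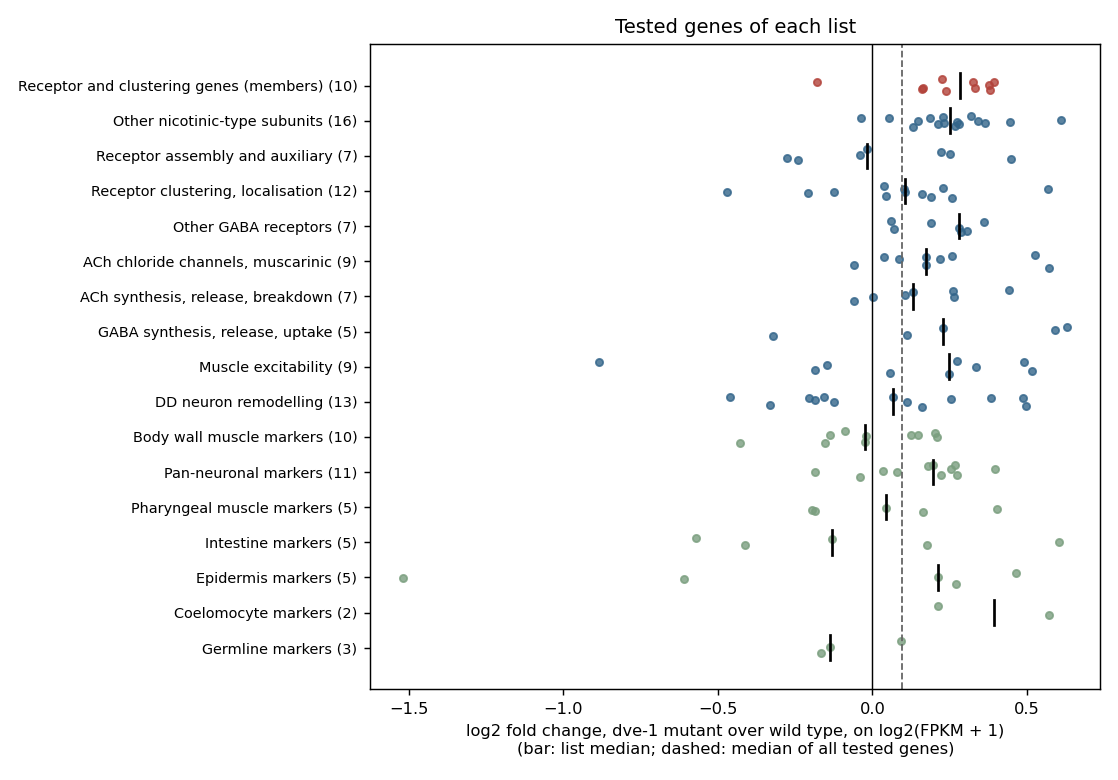
Log2 fold change, dve-1 mutant over wild type on log2(FPKM + 1), of each tested gene by list, with the number tested in parentheses, a bar at the list median and a dashed line at the median of all tested genes (0.09). The 10 receptor and clustering genes (red, median 0.28) lie beside the other nicotinic-type subunits (median 0.25) and other GABA receptors (median 0.28). Medians of the tissue marker lists run from -0.14 (germline) to 0.39 (coelomocytes), with body wall muscle at -0.02 and pan-neuronal genes at 0.20.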

How the data were processed

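Whole-animal RNA of 4 libraries was analysed, and groups and replicate numbers come from the sample titles. The deposited values are FPKM per RefSeq accession, made by the authors with TopHat2 and Cufflinks on genome build ce11, per the submitters' processing notes; versions, strand setting and the handling of multi-mapping reads are not stated there. Versions were dropped from the 52491 accessions, of which 47645 were found in RefSeq's gene table for WBcel235 (the assembly of ce11) and summed to 41614 genes. The 4846 unmatched accessions were not used.

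Genes averaging 1 FPKM or more, 15202 in number, entered limma 3.58.1 (R 4.3.3) as log2(FPKM + 1) with an intensity trend; p-values were adjusted over all of them (Benjamini-Hochberg), with a threshold of 0.05. The step was tested on simulated data, in which the planted changes were larger than those estimated for the members. Exon overlaps come from Ensembl's WBcel235 annotation. The other lists were named by rule: the highest and lowest log2 fold change and the 2 most abundant genes of each, by mean over the 4 libraries. Outside this rule dve-1, acr-2, acr-3, acr-20, linc-33, nra-2, egl-3, dpy-7, che-14, pgl-1 and genes that overlap members were named after their values were seen. Members, lists and alternatives were chosen with earlier results of these data known. Alternatives were another pseudocount, 2 filters, 2 scalings, 2 variance models, a replicate block, protein-coding genes alone, the most abundant accession and each library left out.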

Additional observations from a re-analysis of the deposited data

How the results depend on the processing

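Under each of the 14 alternatives 0 of the receptor and clustering genes tested and 0 of the other listed genes passed limma, and at most 1 of the 10 had a log2 fold change below 0. The lowest adjusted p of any of them was 0.36, without the second wild-type library. The median of the 10, 0.28, ranged from 0.0996, without the first wild-type library, to 0.375, without the second. Directions turned in 3 cases: unc-49, which ranged from -0.615 to 0.256 with 1 library left out, was at 0.256 without the second mutant library and at 0.0345 without the first wild-type library, and unc-38 at -0.0429 without the first wild-type library. At a mean of at least 5 FPKM lev-8 and lev-9 were not tested. The count over all genes, 252, was 105 at a mean of at least 5 FPKM, 391 without the intensity trend, 165 among protein-coding genes alone and between 369 and 767 with 1 library left out, mostly higher in the mutant without a mutant library (332 higher and 37 lower, 425 and 42) and mostly lower without a wild-type library (107 higher and 643 lower, 89 and 678); with 1 library left out, the lone sample is assumed to vary like the other genotype. With the replicate number as a block 0 genes were called (limma), and the lowest adjusted p of the 10 was 0.691. The difference between replicates 1 and 2 correlated between the genotypes at -0.0562 across genes, so the numbers are not taken to pair the samples. With 2 libraries a genotype and an unknown depth, the intervals of the 10 genes allow differences of the size seen between replicates.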
